A study of Mus musculus with 6 samples.

Results

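The genes of the early secretory pathway were described in CD4 T cells sorted from the inflamed mouse colon. Members were chosen by symbol: names that start with Tmed, with Sec, Ssr or Spcs and a digit, and 10 named subunits of the COPI coat and Sar1 GTPases, with pseudogene symbols left out. The rule took 57 of 55335 genes in the count table, all of them annotated as protein coding. Of these, 6 (Sec1 and the Sec14l genes) share only the spelling: Sec1 is a fucosyltransferase gene, and Sec14l genes encode lipid-binding proteins.

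Proteins meant for the cell surface or for secretion, cytokines and their receptors among them, enter the endoplasmic reticulum (ER) through the Sec61 translocon, and signal peptidase removes their leader sequence. The COPII coat, built on the GTPase Sar1, buds vesicles that carry them toward the Golgi, and the COPI coat returns escaped ER proteins and receptors. The p24 proteins (Tmed genes) cycle between ER and Golgi as cargo receptors and bind both coats. Cells that secrete heavily, plasma cells above all, enlarge this system.

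The libraries came from GFP-positive cells, which the labels call stem-like T cells (TCF7+), and from GFP-negative cells, which the labels call effector T cells (TCF7-). Both kinds descend from naive splenic CD4 T cells of TcfGFP reporter mice, transferred into Rag1 KO recipients to induce colitis and recovered from the lamina propria of the colon. Rag1 KO hosts make no mature T or B cells of their own, but keep their myeloid, epithelial and stromal cells. There were 3 bulk RNA-seq libraries per gate. No label gives the ages, any pooling or the mouse behind a replicate. The p-values therefore cover only how far these samples spread, and that spread may be technical.

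Totals were 4408385 to 7462076 counts in GFP-positive and 4309500 to 5183794 counts in GFP-negative libraries, and 3 counts stood at 0.43 to 0.69 CPM (counts scaled to a common library total). All 9 T cell markers were present in each library, and their summed level was 7943, 7561 and 6265 CPM in GFP-positive and 8166, 7291 and 7549 CPM in GFP-negative replicates 1 to 3. The CD8 gene Cd8a had 46.1, 25.3 and 10.3 CPM in GFP-positive and 113, 55.3 and 31.4 CPM in GFP-negative replicates 1 to 3, which overlapped. Cd8b1 had 1.32 to 10.1 CPM per library and overlapped too. The source of these CD8 transcripts was not tested. GFP-positive replicate 3 stood apart: 9 myeloid markers summed to 7158 CPM there, against 145 to 151 CPM in the other GFP-positive and 132 to 192 CPM in the GFP-negative libraries. The summed levels of antigen-presenting, epithelial, and stromal and endothelial markers were highest in it too, at 7037, 317 and 405 CPM. Single markers went otherwise: Krt18 was highest in GFP-negative replicate 3 and Pecam1 in GFP-negative replicate 2, and the endothelial Cdh5 and Kdr had no count in GFP-positive replicate 3. Results that rest on GFP-positive replicate 3 are also given without it. Of the B and plasma cell markers reported here, Ms4a1, Pax5, Igha and Mzb1 were at 0 in all 6 libraries, and Cd79a, Cd79b and Jchain had at most 6 counts in a library. Sdc1, which plasma cells and epithelial cells express, had 195 counts (27.97 CPM) in GFP-positive replicate 3, 7 counts in GFP-negative replicate 1 and 0 in the others. Tcf7, the gene of the reporter, was 237, 183 and 140.8 CPM in GFP-positive replicates 1 to 3, against 121, 140.5 and 71.3 CPM in the GFP-negative ones. The groups were thus separated by a very narrow margin, and in TPM, a level per length described below, they overlapped. Tcf7 was not called by edgeR's test (adjusted p = 0.367). In bulk RNA, fewer cells of a type and less RNA per cell cannot be told apart.

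The comparison asked which mRNAs of the pathway differed between the reporter-positive and the reporter-negative gate. At a threshold of 0.05 on the adjusted p, no member passed edgeR's quasi-likelihood test, run on 11074 genes of which 0.108% did (0.0361% higher and 0.0722% lower). Tmed7, a p24 cargo receptor, came closest, and each of its GFP-positive values lay below each GFP-negative one. The other members differed by small amounts, with more negative than positive values, and the members' summed level was lower in each GFP-positive library than in any GFP-negative one. DESeq2 and limma-voom each called 1 member, Tmed7. So did edgeR with the replicate number as a block, although no label says that this number marks a mouse. Of 16 alternatives in all, 6 called Tmed7 and the rest called no member.

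The expression filter kept 47 of the 57 members. Of the 10 others, Tmed11, Sec14l3, Sec14l4 and Sec14l5 had no count in any library. Copz2, Sec1, Sec14l2 and Tmed6 had at most 3 counts in a library, and Sec16b had 10 counts in GFP-positive replicate 3 and 0 elsewhere. Sec31b had 6, 6 and 8 counts in GFP-positive and 29, 12 and 0 in GFP-negative replicates 1 to 3. A count of 0 allows up to 0.43 to 0.69 CPM, and these limits cover counting error only. These 10 thus lay at or near the detection floor, apart from Sec31b in GFP-negative replicates 1 and 2.

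Among the 47 tested members, 16 had a positive and 31 a negative log2 fold change (GFP-positive minus GFP-negative), while 51.6% of all tested genes were positive. The median was -0.14 over the members and 0.02 over all tested genes. An unadjusted p below 0.05 was reached by 7 members, all lower in GFP-positive cells, which is 14.9% of those tested, beside a background of 10.3% in either direction, 5.97% lower and 4.31% higher. With GFP-positive replicate 2 or 3 left out, 4 members each reached it, and with GFP-negative replicate 3 left out 3 did, 1 of them higher. These were not always among the 7. Without GFP-positive replicate 3, 1 of the 4 was of the translocon class, which had 0 in the main test. In CPM, 9 members lay lower without overlap between the groups (background 8.80%) and 1, Ssr4, lay higher (background 7.25%). In the deposited TPM (a level per length, scaled to a common total) 14 lay lower (background 11.0%) and 0 higher (background 5.06%). Members were more abundant than most genes, with a median of 123 CPM against 28.7 CPM over all tested genes, and their median standard error (SE) was 0.17 against 0.30. Only 2 members, Tmed7 and Copg2, differed by more than 0.5 on the log2 scale in either direction, where 26.1% of all tested genes did.

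**Figure D1:**
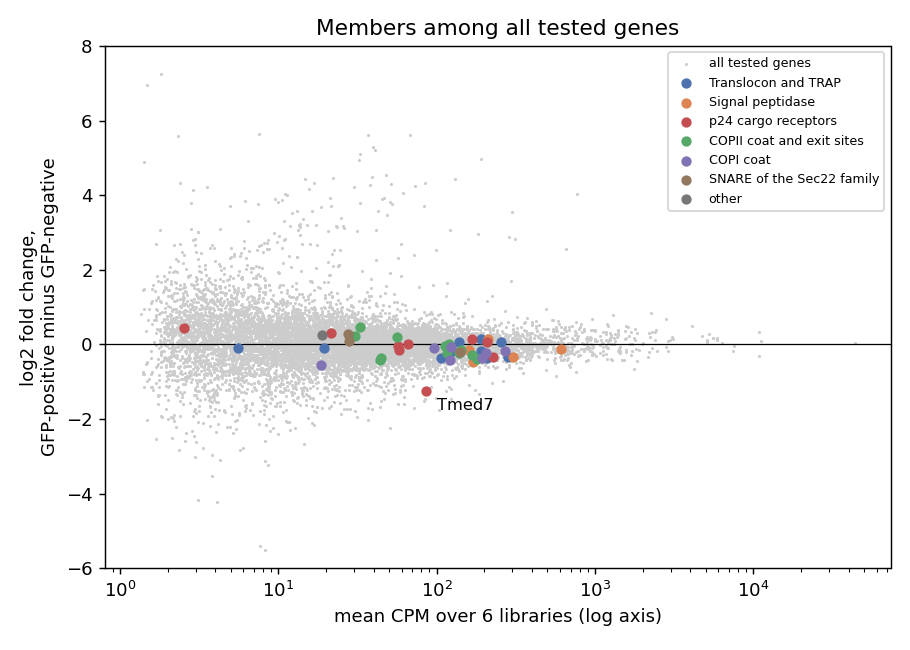
Log2 fold change (GFP-positive minus GFP-negative, vertical axis) against mean CPM over 6 libraries (log axis) for 11074 tested genes in grey and the 47 tested members coloured by role. Tmed7 lies apart from the other members at -1.26, and the rest lie between -0.55 and 0.46.

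The summed level of all 57 members was 6134, 5877 and 5766 CPM in GFP-positive replicates 1 to 3, against 6496, 6389 and 7089 CPM in GFP-negative replicates 1 to 3. The means were 5926 ± 189 CPM for GFP-positive and 6658 ± 377 CPM for GFP-negative cells (SD, n = 3 each), with no test of this sum. GFP-negative replicate 3 was the highest, and GFP-positive replicate 3, the one with myeloid transcripts, was the lowest. Among the role classes, the sums of signal peptidase and of the Sec22 genes overlapped between the gates. Of the partner lists described below, COPI partners, tethers and SNAREs, and ER folding genes had sums separated in the same direction as the members. The sums of the other partner lists overlapped. The summed level of 8 cell cycle markers was 273, 438 and 433 CPM in GFP-positive and 484, 964 and 1277 CPM in GFP-negative replicates 1 to 3. Their part in the result was not tested.

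**Figure D2:**
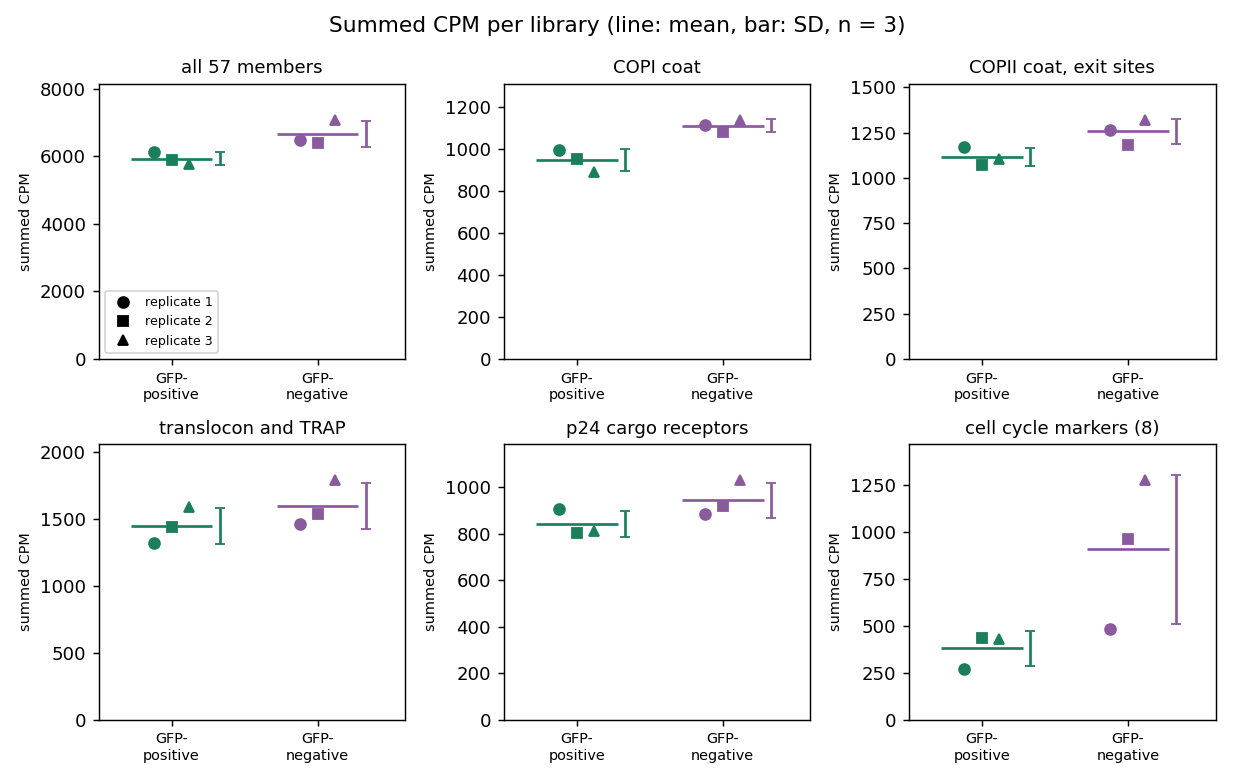
Summed CPM per library (vertical axes from 0) for all members, 4 role classes and 8 cell cycle markers, with GFP-positive libraries left, GFP-negative right, the line at the mean and the bar showing the SD. For all members, both coats and the cell cycle markers every GFP-positive library lies below every GFP-negative one, while translocon and p24 sums overlap.

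At the entry to the ER, the translocon and its partners were among the most abundant members. Sec61b, a small subunit of the channel, had the highest level per length in the class. It averaged 391 ± 26.5 TPM in GFP-positive cells and 465 ± 81.0 TPM in GFP-negative cells (SD, n = 3 each). Sec61g, the other small subunit, followed at 292 ± 20.1 TPM in GFP-positive and 295 ± 25.1 TPM in GFP-negative cells. Sec61a1, the channel itself, had 103 ± 2.39 TPM in GFP-positive and 137 ± 26.97 TPM in GFP-negative cells. In CPM Sec61b had 154, 188 and 195 in GFP-positive replicates 1 to 3, against 179, 183 and 248 in the GFP-negative ones. Its groups overlapped, and in TPM its spread in GFP-negative libraries exceeded its difference between the gates. Sec63, which couples the channel to ER chaperones, and Sec61a2, a minor channel paralog, were lowest at a mean of 6.32 and 3.49 TPM. Sec61a1 supplied 96.9% ± 0.701 of the summed TPM of the channel pair for GFP-positive and 97.1% ± 2.05 for GFP-negative cells. Sec61a2 shares exons with Nudt5 on the other strand, and the libraries do not record strand.

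Of 10 tested genes of the translocon class, 7 were negative and 3 positive, and 0 passed edgeR's test or an unadjusted p below 0.05. Their median was -0.14, and it was -0.07 and -0.25 when GFP-positive replicate 1 or 3 was left out and -0.08 when GFP-negative replicate 3 was. Ssr2, a subunit of the translocon-associated protein (TRAP) complex, which helps nascent chains enter, had 83.8, 101 and 96.5 CPM in GFP-positive and 115, 102 and 142 CPM in GFP-negative replicates 1 to 3. Its groups were separated by a narrow margin, and it differed by -0.35 ± 0.17 on the log2 scale (SE; edgeR adjusted p = 0.515), or -0.20 without GFP-negative replicate 3. Sec61a1 differed by -0.34 ± 0.16 and Ssr3, another TRAP subunit, by -0.35 ± 0.18. Ssr4, also of TRAP, was positive at 0.15 ± 0.14, with 198, 183 and 217 CPM in GFP-positive and 180, 181 and 181 CPM in GFP-negative replicates 1 to 3. Within the TRAP complex 3 genes were thus negative and Ssr4 positive, none of them called.

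Signal peptidase cleaves the leader of proteins as they enter. It holds a catalytic subunit encoded by either Sec11a or Sec11c, together with the products of Spcs1, Spcs2 and Spcs3. Spcs2 was the most abundant gene of the class per length, with means of 389 ± 114 TPM for GFP-positive cells and 434.5 ± 7.81 TPM for GFP-negative cells (SD, n = 3 each). In CPM it was 706, 588.5 and 451 in GFP-positive replicates 1 to 3, against 645, 615 and 629 in the GFP-negative ones, so the GFP-positive libraries lay on both sides of the narrow GFP-negative range. A pseudogene, Spcs2-ps, had at most 6 counts in a library.

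Spcs3, a subunit needed for cleavage, had 131, 178 and 121 CPM in GFP-positive and 176, 202 and 214 CPM in GFP-negative replicates 1 to 3. The groups overlapped by a small margin, between GFP-positive replicate 2 and GFP-negative replicate 1, and it differed by -0.46 ± 0.17 on the log2 scale (SE; edgeR adjusted p = 0.362, unadjusted p = 0.0172). Sec11c had 305, 247 and 246 CPM in GFP-positive and 356, 286.5 and 367.5 CPM in GFP-negative replicates 1 to 3, and differed by -0.34 ± 0.15 (edgeR adjusted p = 0.473, unadjusted p = 0.0450). Sec11a had 234, 227 and 208 CPM in GFP-positive and 203, 186 and 216 CPM in GFP-negative replicates 1 to 3, and differed by 0.15 ± 0.14 (edgeR adjusted p = 0.779). Without GFP-positive replicate 3, which had the lowest value of Spcs3 and of Sec11c, 0 of the 5 signal peptidase genes had an unadjusted p below 0.05 (edgeR). The count was 0 without GFP-negative replicate 3 too. Neither catalytic gene separated the gates by itself, as GFP-positive and GFP-negative libraries overlapped for both.

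The balance of the pair did separate them. Sec11a supplied 53.1%, 57.6% and 55.6% of the summed TPM of the catalytic pair in GFP-positive replicates 1 to 3, against 45.7%, 48.9% and 46.5% in GFP-negative replicates 1 to 3. In TPM, Sec11a was thus the larger partner in each GFP-positive library and the smaller one in each GFP-negative library. In CPM, which takes no account of length, it was the smaller partner in all 6 libraries, so only the difference in share and not the change of order is seen on both scales. The difference was 8.42 percentage points, and the exact permutation test (two-sided) gave p = 0.1, the smallest that 3 against 3 libraries allow, or 0.6 adjusted over 15 paralog shares. A share with no true difference would also separate with a probability of 0.1. Of the 15 shares, only those of Sec11a and of the COPII gene Sec24a did not overlap. Sec11a's difference ranged from 7.34 to 9.58 points when each library was left out in turn, and was 8.19 points as a share of counts. Sec11a shares exons with Nmb, which had 27 to 71 counts per library, and with Gm16171, which had none.

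**Figure D3:**
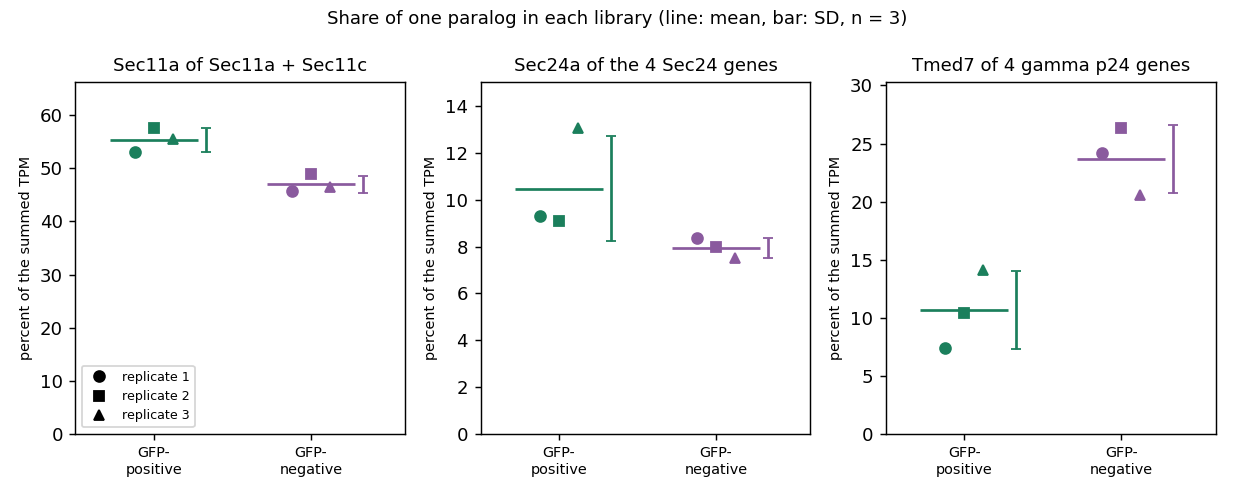
Percent of a paralog set's summed TPM (vertical axes from 0) supplied by Sec11a, Sec24a and Tmed7 in each library, with GFP-positive left, GFP-negative right, the line at the mean and the bar showing the SD. Sec11a supplies 53.1% to 57.6% in GFP-positive and 45.7% to 48.9% in GFP-negative libraries, and Tmed7 supplies 7.41% to 14.1% in GFP-positive and 20.6% to 26.3% in GFP-negative ones.

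The p24 genes form subfamilies, alpha (Tmed4, Tmed9, Tmed11), beta (Tmed2), gamma (Tmed1, Tmed3, Tmed5, Tmed6, Tmed7) and delta (Tmed10), whose products assemble with each other. Tmed8 encodes a related protein that lacks the membrane anchor. Tmed2 was the most abundant per length, with 221 ± 55.6 TPM for GFP-positive and 291 ± 26.7 TPM for GFP-negative cells (SD, n = 3 each). Tmed10 followed at 102.5 ± 7.95 TPM for GFP-positive and 102.6 ± 10.95 TPM for GFP-negative cells. Tmed4, Tmed3 and Tmed5 lay close together at means of 75.3, 65.4 and 62.6 TPM, where the SD of Tmed3 alone was 32.96 TPM in GFP-negative libraries. Of the tested p24 genes, Tmed8 and Tmed1 were lowest, at 8.30 and 4.74 TPM, and Tmed1 had 3 to 22 counts per library. Tmed1 shares exons on the other strand with Dnm2, which had 1260 to 2096 counts per library, so some reads of Tmed1 may belong to Dnm2.

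Tmed7 (ENSMUSG00000033184.14; mm10 chromosome 18, 46560235 to 46597535, minus strand) is known for binding the innate receptor TLR4 and aiding its passage to the cell surface. It had 33.9, 50.8 and 67.1 CPM in GFP-positive replicates 1 to 3, on 196, 221 and 468 counts, against 108, 125 and 133 CPM in GFP-negative replicates 1 to 3, on 555, 548 and 605 counts. The highest GFP-positive library lay well below the lowest GFP-negative one. The means were 50.6 ± 16.6 CPM for GFP-positive and 122 ± 12.8 CPM for GFP-negative cells (SD, n = 3 each), a ratio of 0.416. Tmed7 differed by -1.26 ± 0.23 on the log2 scale (SE; edgeR adjusted p = 0.0678, unadjusted p = 0.000116). Of the 3 GFP-positive libraries the highest was replicate 3, the one with myeloid transcripts. Leaving it out gave -1.51, with 0.0148 as edgeR's adjusted p. Over 16 alternatives the log2 fold change ranged from -1.51 to -1.04 and the adjusted p from 3.67e-07 to 0.306, with 6 of them past the threshold. The lowest of these adjusted p came from edgeR with no filter, which called 373 genes where the main test called 12.

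An exon of Tmed7 overlaps one of Ticam2, a TLR4 adaptor gene on the same strand. Ticam2 had 34 counts in GFP-positive replicate 3 and 0 in the other 5 libraries. In the gamma subfamily, a comparison chosen after the values were seen and given without a test, Tmed7 supplied 7.41%, 10.4% and 14.1% of the summed TPM of 4 genes in GFP-positive replicates 1 to 3. It supplied 24.2%, 26.3% and 20.6% in GFP-negative replicates 1 to 3. The other gamma genes had positive log2 fold changes, none of them called. They were 0.01 ± 0.31 for Tmed3, 0.13 ± 0.16 for Tmed5 and 0.45 ± 0.97 for Tmed1 (SE; edgeR adjusted p = 0.992, 0.844 and 0.921).

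Tmed2, the beta subunit, had 237, 187 and 170 CPM in GFP-positive and 228, 261 and 268 CPM in GFP-negative replicates 1 to 3. The groups overlapped through replicate 1 of each, and it differed by -0.35 ± 0.16 on the log2 scale (SE; edgeR adjusted p = 0.473, unadjusted p = 0.0449). Without GFP-positive replicate 3, only 1 p24 gene, Tmed7, had an unadjusted p below 0.05 (edgeR), so this no longer held for Tmed2. Tmed10, its delta partner, had 213.5, 195 and 233 CPM in GFP-positive against 188, 194 and 233 CPM in GFP-negative replicates, a difference of 0.06 ± 0.15. Over the 9 tested p24 genes 5 were positive and 4 negative, with a median of 0.01, so the family had no common direction. Leaving out GFP-negative replicate 2 gave a median of -0.15, and leaving out replicate 3 of that gate gave 0.14.

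**Figure D4:**
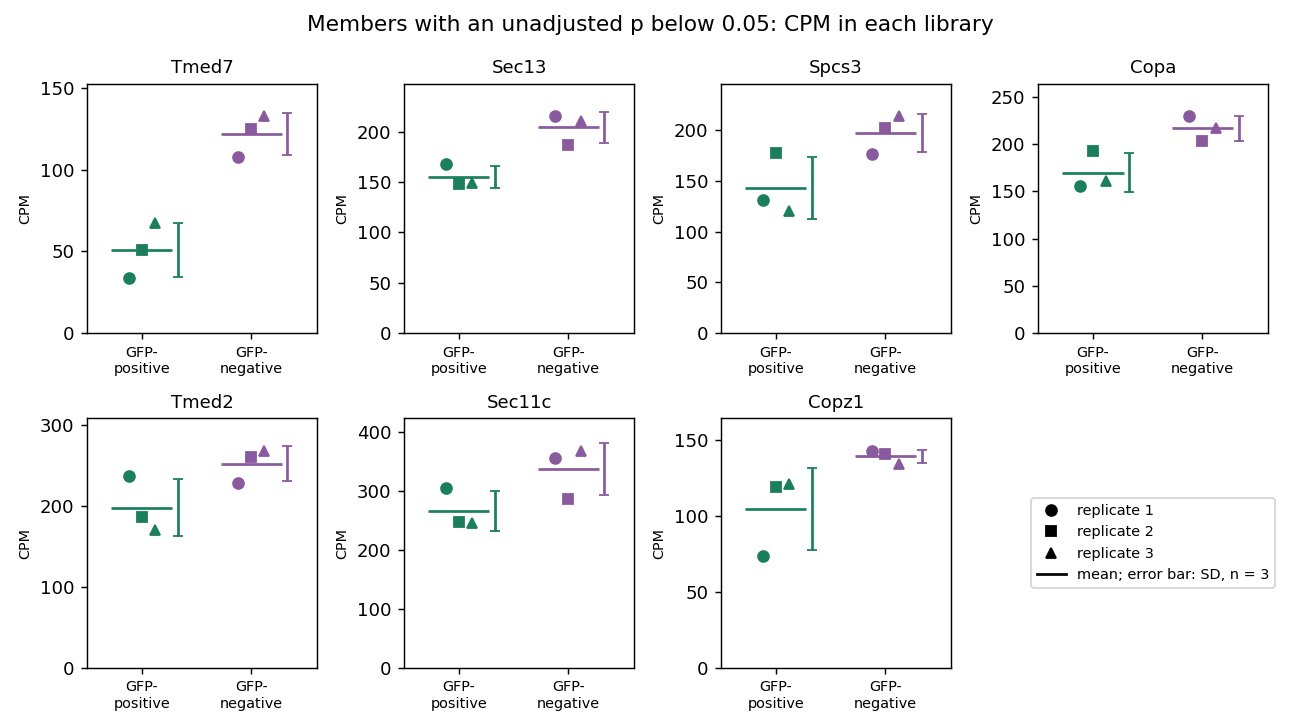
CPM in each library (vertical axes from 0) for the 7 members with an unadjusted p below 0.05, with GFP-positive left, GFP-negative right, the line at the mean and the bar showing the SD. For Tmed7, Sec13, Copa and Copz1 every GFP-positive library lies below every GFP-negative one, while Spcs3, Tmed2 and Sec11c overlap.

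The COPII coat forms on Sar1 in its GTP state, which recruits the inner layer of Sec23 and Sec24, the cargo-binding subunit, and then the outer cage of Sec13 and Sec31. Sar1b was the most abundant per length, at 303 ± 58.8 TPM for GFP-positive and 347 ± 29.1 TPM for GFP-negative cells (SD, n = 3 each). Sec13 came next at 136 ± 19.3 TPM for GFP-positive and 187 ± 9.96 TPM for GFP-negative cells. In CPM Sar1b had 155, 121 and 130 in GFP-positive and 140, 159 and 149 in GFP-negative replicates 1 to 3, which overlapped. Sec16a, the scaffold of ER exit sites, was lowest of the tested class at a mean of 10.2 TPM. Of the 12 tested genes 8 were negative and 4 positive, with a median of -0.18, which was -0.06 without GFP-positive replicate 2 and -0.11 without GFP-negative replicate 3.

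Sec13, a cage subunit that also serves in nuclear pores, had 167.5, 148 and 149.5 CPM in GFP-positive and 215.5, 187 and 211 CPM in GFP-negative replicates 1 to 3. The groups did not overlap, and it differed by -0.40 ± 0.14 on the log2 scale (SE; edgeR adjusted p = 0.327, unadjusted p = 0.0128). Its cage partner Sec31a overlapped between the gates, at 130, 95.0 and 159 CPM in GFP-positive and 136, 138.5 and 177 CPM in GFP-negative replicates 1 to 3. Sec16a had the largest difference of the class by a narrow margin over Sec24d, with 45.6, 35.6 and 32.1 CPM in GFP-positive and 21.7, 34.6 and 26.3 CPM in GFP-negative replicates 1 to 3. Its groups overlapped, and it differed by 0.46 ± 0.27 (edgeR adjusted p = 0.625). Without GFP-positive replicate 1 this was 0.30, less than the size of Sec13's difference there, -0.46.

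The 4 Sec24 paralogs select different cargo. Sec24c and Sec24b supplied most of their summed TPM. Sec24c gave 44.2% ± 3.48 for GFP-positive and 47.9% ± 0.597 for GFP-negative cells, and Sec24b gave 34.3% ± 0.144 for GFP-positive and 31.1% ± 2.91 for GFP-negative cells (SD, n = 3 each). Sec24a supplied 9.31%, 9.08% and 13.1% in GFP-positive replicates 1 to 3, against 8.38%, 7.98% and 7.497% in the GFP-negative ones, which did not overlap (exact permutation test, two-sided, p = 0.1, or 0.6 adjusted over the 15 shares). The difference was 2.54 percentage points, and 1.24 points without GFP-positive replicate 3, the one with high myeloid markers.

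By level, Sec24a had 53.0, 54.95 and 71.6 CPM in GFP-positive and 58.5, 47.3 and 49.3 CPM in GFP-negative replicates 1 to 3, which overlapped. Sec24c had 159, 160 and 131 CPM in GFP-positive and 197, 165 and 188 CPM in GFP-negative replicates 1 to 3, without overlap, and differed by -0.29 ± 0.15 on the log2 scale (SE; edgeR adjusted p = 0.540), or -0.19 without GFP-positive replicate 3. Sec24d had 31.2, 42.1 and 39.6 CPM in GFP-positive against 53.9, 37.1 and 61.0 CPM in GFP-negative replicates. Sec24b had 109.5, 117 and 106 CPM in GFP-positive against 121, 114 and 105 CPM in GFP-negative replicates. Both overlapped. Sec23a's share of the Sec23 pair was 25.6% ± 5.37 for GFP-positive and 23.2% ± 4.79 for GFP-negative cells, and Sar1a's share of the Sar1 pair was 21.2% ± 3.52 for GFP-positive and 22.03% ± 2.01 for GFP-negative cells. These overlapped too (exact permutation test, two-sided, p = 0.6 and 0.7).

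The COPI coat is a complex of several subunits, of which the rule takes alpha, beta, beta prime, epsilon, gamma and zeta (Copa, Copb1, Copb2, Cope, the Copg genes and the Copz genes). All 7 tested genes had negative log2 fold changes, from -0.55 to -0.07 with a median of -0.22, and 0 were called by edgeR's test, DESeq2 or limma-voom, while 2 had an unadjusted p below 0.05. Without GFP-positive replicate 3, 6 of 7 were negative and the median was -0.11, and 6 of 7 were negative without GFP-positive replicate 2 or GFP-negative replicate 3 as well. The summed level of all 8 genes was 996, 954 and 889 CPM in GFP-positive and 1111, 1080 and 1139 CPM in GFP-negative replicates 1 to 3, so the groups did not overlap. Arcn1, the delta subunit, which the rule does not take, differed by -0.23 ± 0.15 on the log2 scale (SE; edgeR adjusted p = 0.663).

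Copa, the alpha subunit, which binds the dilysine tails of retrieved proteins, had 156, 193 and 160.5 CPM in GFP-positive and 230, 203 and 217 CPM in GFP-negative replicates 1 to 3. The groups did not overlap, and it differed by -0.35 ± 0.14 on the log2 scale (SE; edgeR adjusted p = 0.416, unadjusted p = 0.0292). Copa shares exons on the other strand with Ncstn, which had 463 to 751 counts in GFP-positive and 335 to 494 in GFP-negative libraries, so some of its reads may belong to that gene. Copz1, the zeta subunit, had 73.4, 119 and 121 CPM in GFP-positive and 143, 141 and 135 CPM in GFP-negative replicates 1 to 3, and differed by -0.42 ± 0.19 (edgeR adjusted p = 0.479, unadjusted p = 0.0478). GFP-positive replicate 1 lay far below its fellows, and without it the difference was -0.22 (unadjusted p = 0.185, edgeR).

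Copg2, a gamma paralog, had the largest difference in the coat and a low level. It had 11.1, 16.3 and 17.8 CPM in GFP-positive and 21.1, 25.5 and 19.5 CPM in GFP-negative replicates 1 to 3. The groups were separated by a narrow margin, and it differed by -0.55 ± 0.33 on the log2 scale (SE; edgeR adjusted p = 0.632). The main gamma gene Copg1 differed by -0.09 ± 0.19 and supplied 73.4% ± 8.66 of the pair's TPM for GFP-positive and 67.6% ± 3.92 for GFP-negative cells, which overlapped. Cope, the epsilon subunit, was the most abundant of the coat per length, at 214 ± 50.4 TPM for GFP-positive and 249.7 ± 18.2 TPM for GFP-negative cells (SD, n = 3 each). Its CPM overlapped between the gates, with 303, 237 and 227 in GFP-positive and 268, 299 and 295 in GFP-negative replicates 1 to 3.

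**Figure D5:**
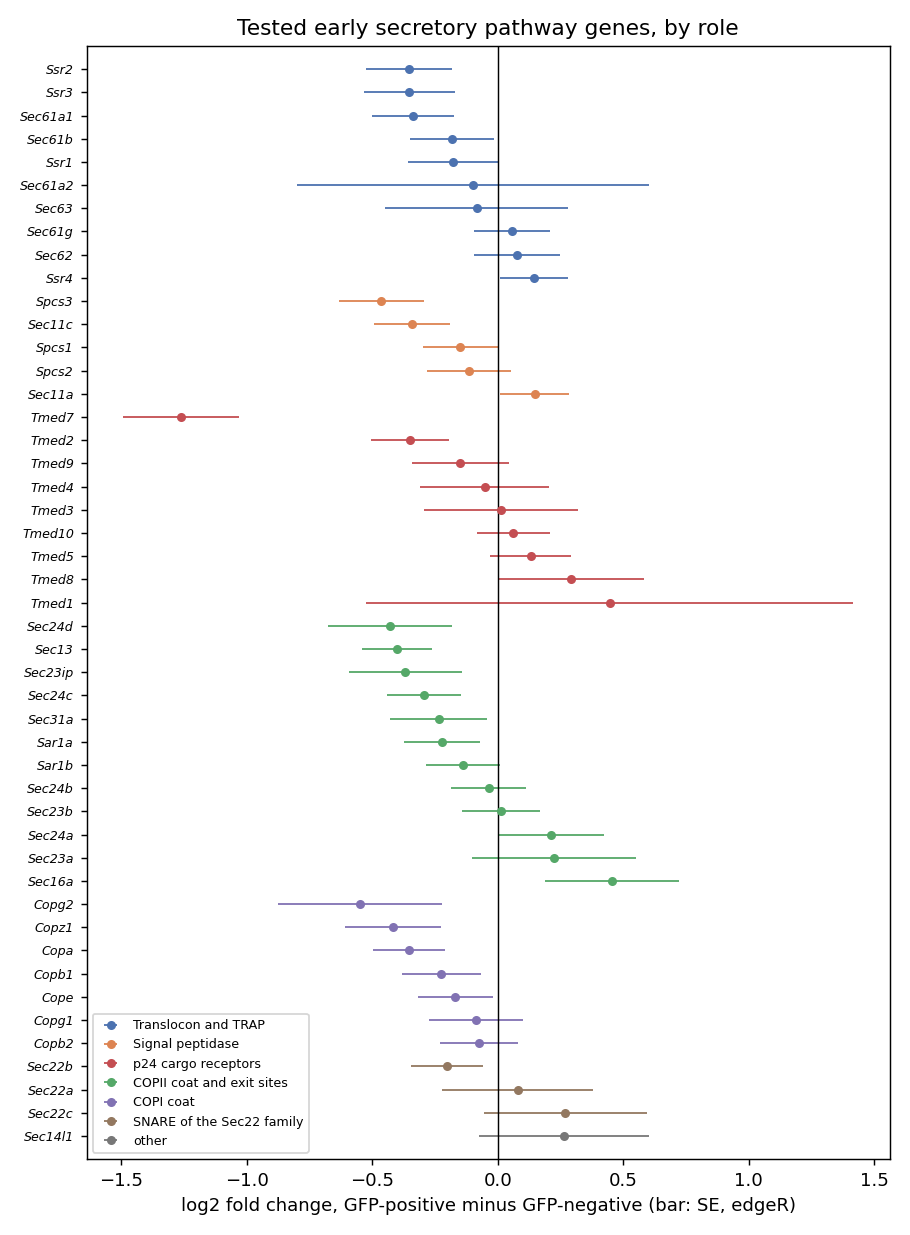
Log2 fold change of the 47 tested members (GFP-positive minus GFP-negative, horizontal axis), grouped by role, with bars of 1 SE from edgeR. All 7 COPI genes lie left of 0, Tmed7 lies farthest left at -1.26, and Sec16a lies farthest right at 0.46.

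Sec22b, a SNARE of ER to Golgi transport, had 137, 135 and 119 CPM in GFP-positive and 150, 161 and 138 CPM in GFP-negative replicates 1 to 3, separated by a narrow margin (log2 fold change -0.20 ± 0.14 SE; edgeR adjusted p = 0.699). It supplied 76.2% ± 3.28 of the TPM of the 3 Sec22 genes for GFP-positive and 80.2% ± 4.06 for GFP-negative cells. Sec22c, which had the largest difference of the 3, stood at 38.6, 33.1 and 18.7 CPM in GFP-positive against 20.4, 21.8 and 32.7 CPM in GFP-negative replicates and overlapped. Its value of 0.27 ranged from 0.05 without GFP-positive replicate 1 to 0.54 without GFP-positive replicate 3. Of the genes matched by spelling alone, only Sec14l1 was tested. It had 28.6, 14.5 and 18.9 CPM in GFP-positive and 16.9, 18.7 and 16.2 CPM in GFP-negative replicates 1 to 3, again with overlap.

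Promoters of the members were searched for elements of the unfolded protein response, the program by which ATF6 and XBP1 raise ER and coat genes in secreting cells. RefSeq windows (GRCm38.p6, 250 bases before to 50 after the start) were available for 49 of 57 members, 54 windows in all. Tmed7, Tmed2, Spcs3 and Sec11c, all with an unadjusted p below 0.05, had no window and were not searched. Nor were Sec61a1, Ssr2, Tmed11 and Sec14l4. The element TGACGTGG, searched on both strands, was found in 5 of the 54 windows (9.26%), against 0.676% of 32851 windows of all genes. Its core CCACG, which the longer element contains, was found in 63.0% of member windows and 32.8% of all. The ER stress element, CCAAT and CCACG set 9 bases apart, was found in 0 member windows and in 0.119% of all. A match of letters is a description and not a bound site. The 4 stretches below belong to expressed coat genes and show, in capitals, TGACGTGG or its reverse complement within 60 bases on the gene's strand.
Copb1 (chr7:114254675-114254734, minus strand): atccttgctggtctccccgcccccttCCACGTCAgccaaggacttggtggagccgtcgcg
Copb2 (chr9:98563698-98563757, plus strand): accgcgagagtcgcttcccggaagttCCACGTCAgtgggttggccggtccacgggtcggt
Sec23a (chr12:59011978-59012037, minus strand): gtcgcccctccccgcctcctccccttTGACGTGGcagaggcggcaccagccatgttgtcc
Sec24d (chr3:123267444-123267503, plus strand): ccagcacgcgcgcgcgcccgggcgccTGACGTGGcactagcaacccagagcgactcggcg
The fifth window was that of Sec16b, which was barely detected. The matches began 28, 7 and 26 bases before the RefSeq start of Copb1, Copb2 and Sec24d and 6 bases after that of Sec23a. The GENCODE records of Copb1, Copb2 and Sec24d begin farther upstream than the RefSeq starts. By GENCODE bounds, the matches of all 4 genes thus lay inside the gene and not before its start. Of these genes 3 were negative and Sec23a positive, none of them called, with log2 fold changes of -0.22 ± 0.16, -0.07 ± 0.16, -0.43 ± 0.25 and 0.23 ± 0.33 (SE) for Copb1, Copb2, Sec24d and Sec23a.

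Of the partners of the pathway outside the rule, in 5 lists, edgeR's test called 0. As background for the counts in all 5 lists, 51.6% of all tested genes were positive. At an unadjusted p below 0.05 (edgeR), 5.97% of all tested genes were lower and 4.31% higher. Of 24 genes of ER folding and the unfolded protein response, 18 were negative, with a median of -0.17. Pdia6, a disulfide isomerase, had the smallest p, at -0.37 ± 0.14 on the log2 scale (SE; edgeR adjusted p = 0.398), Hyou1, a chaperone, had the smallest p among those higher, at 0.46 ± 0.26, and 2 were lower at an unadjusted p below 0.05. Of 20 genes of the signal recognition particle and oligosaccharyltransferase 16 were negative (median -0.10, and -0.19 without GFP-positive replicate 3), with 1, Ostc, below an unadjusted p of 0.05 (-0.44 ± 0.16) and Ost4 the leading positive gene (0.54 ± 0.28). Of 19 tethers and SNAREs 16 were negative (median -0.14), led by the Golgi matrix gene Golga2 (-0.72 ± 0.26) and, among 3 positive genes, by Trappc5 (0.43 ± 0.25), with 2 lower at an unadjusted p below 0.05. Gorasp1, a Golgi stacking gene named after its values were seen, had the lowest log2 fold change of the 5 lists, at -2.10 ± 1.06 (SE; edgeR adjusted p = 0.540). It had 14, 6 and 0 counts in GFP-positive and 41, 26 and 11 counts in GFP-negative replicates 1 to 3, which overlapped. DESeq2 and limma-voom called 0 in these 3 lists.

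COPI partners, the Arf GTPases and retrieval receptors, were negative in 11 of 16 (median -0.15), with 2 lower at an unadjusted p below 0.05. Arf3, a GTPase of the Golgi, had 33.6, 43.9 and 46.3 CPM in GFP-positive and 77.7, 91.0 and 66.7 CPM in GFP-negative replicates 1 to 3. The groups did not overlap, and it differed by -0.93 ± 0.21 on the log2 scale (SE; edgeR adjusted p = 0.127). DESeq2 called it and limma-voom did not. Arf4, with 0.23 ± 0.14, had the smallest p among the positive genes. COPII partners were evenly split, 8 and 8 with a median of 0.01 (-0.12 without GFP-positive replicate 3), and neither DESeq2 nor limma-voom called one. Mia3, which encodes TANGO1, a loader of large cargo at exit sites, had the smallest p among those higher, without overlap, at 91.3, 98.4 and 79.2 CPM in GFP-positive against 69.0, 65.7 and 64.9 CPM in GFP-negative replicates 1 to 3 (0.43 ± 0.17; edgeR adjusted p = 0.408, unadjusted p = 0.0262). Surf4, a cargo receptor, had the smallest p among those lower, at -0.32 ± 0.16.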

How the data were processed

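The authors deposited whole-number counts per gene and TPM for the 6 libraries. The submitters' processing notes name STAR 2.7.10b, fastp 0.23.3, deepTools 3.5.1 and SAMtools 1.17, and mm10 as the build. Neither the role of each tool nor the counter, annotation and gene lengths is given in the sources used here. Per the labels' protocols, cDNA primed with oligo-dT and random hexamers went through PCR and a transposase kit. Such libraries record no strand and carry no molecular identifiers, so 17 tested members that share exons with a gene on the other strand may hold some of its reads. All columns could be matched to a sample, and groups and replicate numbers come from the titles. No pair of libraries was a duplicate (smallest chi-square per degree of freedom within a group 11.1).

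Counts of all genes were tested in R 4.3.3 by quasi-likelihood (edgeR 4.0.16), with TMM factors, robust dispersions, the group as the only term and edgeR's filter by group (minimum count 10). P-values were adjusted by Benjamini-Hochberg over 11074 genes, with a threshold of 0.05. CPM use the tested genes' total after TMM scaling, and the SE was derived from the log2 fold change and F. Paralog shares used the deposited TPM and a two-sided exact permutation test. Alternatives were library size alone or RLE factors, no filter, 1 CPM in 3 libraries, DESeq2 1.42.0, limma-voom (limma 3.58.1), limma on log2(TPM + 1), with and without a filter, and on log2(TPM + 0.1), a replicate block, a threshold of 0.01 and leaving out each library. For shares, counts in place of TPM and 1 TPM added were tried. The scripts were tested on simulated data. In 10 draws of this comparison with known changes, on 10698 to 10767 genes, edgeR recovered 26.1% of 2-fold and 73.6% of 4-fold changes. Unchanged genes made up 1.2% to 13.8% of its calls (median 10%), so an adjusted p below 0.05 may let through more false calls than it states. Gene coordinates are those of GENCODE M21 on mm10, 1-based, and all 57 member identifiers matched it with their version. Coordinates of the promoter stretches follow the RefSeq windows (GRCm38.p6).

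Members and lists were chosen with earlier results of these data known. Values in every library are given for members with an unadjusted p below 0.05, for the most abundant and most different member of each role class, for paralogs whose shares did not overlap, and for a few partners of these, chosen after their values were seen. In each partner list the gene with the smallest p in each direction is named.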

Additional observations from a re-analysis of the deposited data

How the results depend on the processing

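The number of genes called, 12 by the main test, was 19 with library size alone, 373 with no filter, 200 with DESeq2, 81 with the replicate block, 1 with limma on log2(TPM + 1) with and without a filter, 0 with limma on log2(TPM + 0.1), 0 at a threshold of 0.01 and 0 to 50 when each library was left out. The 12 were all among those called with library size alone, no filter, DESeq2, limma-voom and the block. The number of members called, 0 by the main test, was 1 (Tmed7) with library size alone, no filter, DESeq2, limma-voom and the replicate block and 0 to 1 when each library was left out, the 1 being Tmed7 without GFP-positive replicate 3. The members' median log2 fold change was -0.14, with -0.21 on both filtered TPM scales, and -0.16 to -0.10 when each library was left out. The cause of these differences was not tested.

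Of 352 values of 22 named members under alternatives, 342 kept their direction and side of the threshold, 6 passed it (Tmed7) and 4 reversed, Sec14l1 without GFP-positive replicate 1, Sec24b without GFP-positive replicate 3 and without GFP-negative replicate 1, and Spcs2 without GFP-positive replicate 3. When each library was left out, Sec14l1 ranged from -0.042 to 0.47, Sec24b from -0.075 to 0.014 and Spcs2 from -0.277 to 0.052. Share differences that reversed were Sec16a with 1 TPM added (0.195 points) and, when each library was left out, Sec23a (-0.485 to 4.81), Sar1a (-2.49 to 1.02), Sec31a (-0.0454 to 3.76), Sec61a1 (-0.851 to 0.982) and Sec22a (-0.0343 to 3.54).

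Replicate numbers are shared by the gates, but no label says that they mark a mouse or day. Deviations of same-numbered libraries from their group means correlated at 0.104, 0.097 and 0.104 across genes for replicates 1 to 3. Libraries of unlike number correlated at -0.124 to 0.02. Replicate 2 fell short of the 0.1 asked of every pair, although each library correlated best with its own number. Deviations from a group mean cancel within a gate, so higher values for like numbers push those for unlike numbers down. The contrast between them is thus partly built in. With the block, Tmed7 had a log2 fold change of -1.31 and an edgeR adjusted p of 0.00840, and Sec11a's share a sign-flip exact p of 0.25, the smallest that 3 pairs allow. Depth limits the members with few counts, such as Tmed1, Sec61a2 and Sec31b.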
